A study of Mus musculus with 15 samples.

Results

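Transcripts that mark mast cells were followed across the sorted cell populations of B16-F0 tumors. The 9 genes were Cma1, Mcpt4, Tpsb2, Tpsab1 and Cpa3, which encode proteases of the secretory granule, Fcer1a and Ms4a2, which encode chains of the high-affinity receptor for IgE, Hdc, which encodes the enzyme that makes histamine, and Kit, which encodes the receptor for stem cell factor. They were taken by symbol from the 53465 genes of the table of normalized counts, and each symbol matched 1 gene. They were chosen by their levels in these same libraries, mainly their rise in TA, as seen in earlier results, so their own levels are a description without a test. B16-F0 is a mouse melanoma line, and its cells were injected into mice that carry GFP in all tissues under the CAG promoter, with tumors collected on day 15. GFP+ host cells negative for Lineage markers and positive for CD34 were sorted into endovascular progenitors (EVP, CD31lo VEGFR2lo), transit amplifying cells (TA, CD31int VEGFR2lo) and definitive differentiated cells (D, CD31hi VEGFR2hi), with 5 libraries each. All 3 populations therefore shared the GFP host line, the tumor line, the day and the CD34 gate. Mice of both sexes, 8 to 14 weeks of age, were used in the study. The sources used here do not say whether the libraries of a population came from separate animals, and the spread between them may be partly technical.

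Mast cells are tissue-resident cells of the blood lineage that store histamine and proteases in granules bound to the proteoglycan serglycin. Crosslinking of IgE on its receptor, which is built of an alpha chain, a beta chain and a pair of gamma chains, makes the granules discharge. Their growth and survival depend on stem cell factor acting on KIT, a receptor that blood progenitors and melanocytes also carry. In the mouse, the connective tissue type holds the chymases CMA1 and MCPT4, the tryptases TPSB2 and TPSAB1 and carboxypeptidase CPA3, and such cells are abundant in skin.

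On GRCm38 the chymase genes Cma1 (ENSMUSG00000022225, chr14:55941451-55944675) and Mcpt4 (ENSMUSG00000061068, chr14:56059629-56062313) lie in the same cluster of chromosome 14. The tryptase genes Tpsab1 (ENSMUSG00000024173, chr17:25343245-25345562) and Tpsb2 (ENSMUSG00000033825, chr17:25366550-25368094) are neighbors on chromosome 17. Cpa3 (ENSMUSG00000001865) spans chr3:20215620-20242181, Fcer1a (ENSMUSG00000005339) chr1:173221284-173227214, Ms4a2 (ENSMUSG00000024680) chr19:11615523-11623719, Hdc (ENSMUSG00000027360) chr2:126593667-126619299 and Kit (ENSMUSG00000005672) chr5:75574916-75656722. The exons of the 9 genes overlap no other gene in the annotation. Reads are 76 bases long, and stretches of that length shared with another gene made up 1.58% of Cma1, 2.42% of Mcpt4 and 1.19% of Ms4a2 transcripts. Tpsb2 and Tpsab1 are close relatives, but no stretch of 76 bases was shared between them.

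The 250 bases before the start site were read for 7 of the 9 genes from the RefSeq table of GRCm38.p6. That table held no entry for Tpsb2 and Tpsab1. Stretches are printed for the proteases Cpa3, Cma1 and Mcpt4, for the alpha chain of the IgE receptor and for Kit. They were picked because the first 4 moved together across libraries and Kit did not. Capitals mark 4 forms of the site read by GATA factors, which were spelled as the word AGATAA, its variant AGATAG, the word TGATAA or its variant TGATAG. They also mark the E-box words read by MITF, which were CATGTG or the palindrome CACGTG. Both strands were searched. The words of each kind do not overlap those of the other kind. All stretches run 5′ to 3′ on the strand of the gene and end at the base before the RefSeq start site. They lie at chr3:20242182-20242431 (minus strand) for Cpa3, chr14:55944676-55944925 (minus) for Cma1, chr14:56062311-56062560 (minus) for Mcpt4, chr1:173227230-173227479 (minus) for Fcer1a and chr5:75574737-75574986 (plus) for Kit. RefSeq starts can differ from the gene positions given above, and the stretches of Kit and Mcpt4 reach into those positions. A second Kit entry, at chr5:75574741-75574990, held none of the words either.
Cpa3: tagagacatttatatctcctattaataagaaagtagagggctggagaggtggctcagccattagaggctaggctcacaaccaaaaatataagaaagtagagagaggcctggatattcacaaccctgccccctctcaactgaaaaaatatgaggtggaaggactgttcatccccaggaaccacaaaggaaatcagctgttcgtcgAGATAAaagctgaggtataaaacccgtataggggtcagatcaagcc
Cma1: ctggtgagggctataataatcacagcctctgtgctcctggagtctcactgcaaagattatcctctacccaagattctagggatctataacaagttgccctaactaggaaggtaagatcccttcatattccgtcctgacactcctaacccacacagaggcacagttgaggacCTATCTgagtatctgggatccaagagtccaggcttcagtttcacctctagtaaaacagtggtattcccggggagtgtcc
Mcpt4: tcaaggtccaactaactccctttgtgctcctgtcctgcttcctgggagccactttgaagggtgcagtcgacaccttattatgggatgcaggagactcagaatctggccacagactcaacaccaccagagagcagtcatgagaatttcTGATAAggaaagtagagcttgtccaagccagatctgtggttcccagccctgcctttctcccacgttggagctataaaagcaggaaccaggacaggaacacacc
Fcer1a: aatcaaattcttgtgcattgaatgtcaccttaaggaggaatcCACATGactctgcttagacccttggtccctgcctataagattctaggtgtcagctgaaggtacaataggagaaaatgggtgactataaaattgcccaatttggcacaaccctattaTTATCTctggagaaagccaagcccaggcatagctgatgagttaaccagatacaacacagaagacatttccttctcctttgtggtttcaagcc
Kit: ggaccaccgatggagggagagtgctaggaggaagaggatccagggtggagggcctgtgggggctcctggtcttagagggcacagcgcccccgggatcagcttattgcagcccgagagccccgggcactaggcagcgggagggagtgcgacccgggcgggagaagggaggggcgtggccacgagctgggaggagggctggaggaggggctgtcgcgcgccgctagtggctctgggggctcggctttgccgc
A GATA word lay 46 bases before the start of Cpa3, 79 before Cma1, 103 before Mcpt4 and 92 before Fcer1a, and the E-box word of Fcer1a lay 208 bases before its start. Ms4a2 held 3 GATA words and Hdc held 1. None of these letters occurred in the stretch before Kit. Of all 32851 promoter stretches of this length, 26.5% held a GATA word and 17.6% an E-box word, so a match is common.

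Between 5394356 (EVP replicate 1) and 26513073 (D replicate 5) reads were counted on genes per library, and a limit of detection of 3 reads equalled 10.5 and 1.81 normalized counts in these libraries. A normalized count is the read count divided by 1 size factor for the library. Limits and intervals cover counting error only, because reads from amplified cDNA are not independent molecules. Olfactory receptor genes, which these cells are not known for, had reads to very different extents, with 98.3%, 81.6% and 89.2% of the 1106 genes in replicate 1 of EVP, TA and D, 71.0% in TA replicate 3, 61.8% in EVP replicate 2, 57.8% in TA replicate 2 and between 2.89% and 24.1% in the other 9 libraries. The replicate 1 libraries also gave 8.50% to 10.6% of their reads to 1 predicted gene, Gm10800, which took at most 0.701% elsewhere. Fits without them were therefore also made.

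The granule proteases were high in TA, lower in EVP and lowest in D, where only replicates 1 and 4 had over 3 reads of any of them. Cma1, a chymase, had 7656, 31096, 23462, 27713 and 1107 normalized counts in TA replicates 1 to 5. In EVP it had 169, 2824, 1322, 3801 and 1.38 normalized counts, and in D 4.12, 0, 0, 53.3 and 0. Every TA library was above every D library, whereas TA replicate 5 fell below 3 of the EVP libraries. The mean was 18207 ± 13114 (SD, n = 5) in TA, 1624 ± 1660.1 in EVP and 11.5 ± 23.5 in D, so that TA was 11.2-fold above EVP. Mcpt4, the other chymase of connective tissue mast cells, had 2254, 11675, 5593, 4855 and 382 normalized counts in TA, 45.6, 543, 225, 1761 and 0 in EVP and 6.86, 0, 0, 22.5 and 0 in D.

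Cpa3, the carboxypeptidase that trims peptides and venom toxins, had 6891, 23623, 22476, 40328 and 1684 normalized counts in TA replicates 1 to 5. In EVP it had 305, 2917, 1347, 5807 and 1.38, and in D 49.4, 0, 0, 87.1 and 1.81. The means were 19000.5 ± 15288 in TA, 2076 ± 2377 in EVP and 27.7 ± 39.4 in D (SD, n = 5). The D libraries thus fell into 2 with 36 (replicate 1) and 116 (replicate 4) reads and 3 with at most 3 reads.

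Tpsb2, the more abundant tryptase, had 3852, 10897, 10814, 18156 and 763 normalized counts in TA, 137, 1602, 1090.5, 2959.6 and 2.77 in EVP, and 0, 0, 0, 25.5 and 0 in D. Tpsab1, the second tryptase of the locus, had 967, 3716, 2143, 3031 and 79.7 normalized counts in TA. It had 17.6, 423, 212, 609.8 and 0 in EVP, and 4 reads in D, all in replicate 1. In each of the 5 protease genes EVP replicate 5 was the lowest EVP library, with between 0 and 4 reads, and TA replicate 5 the lowest TA library.

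Both receptor chains had their highest mean in TA, where Fcer1a was near Tpsab1 and Ms4a2 was below all the proteases. Fcer1a, the alpha chain that binds IgE, had 665, 4605, 2099, 2469.6 and 139 normalized counts in TA, 129.9, 349, 106, 400.4 and 0 in EVP and 27.5, 0, 0, 11.3 and 0 in D. Its mean was 1996 ± 1751 in TA, 10.1-fold above the 197 ± 170.4 in EVP (SD, n = 5). Ms4a2, the beta chain that amplifies the receptor's signal, had 403, 523, 186, 537 and 50.4 normalized counts in TA, 200.1, 53.6, 0.818, 136 and 0 in EVP and 90.6, 0, 0, 0 and 0 in D. It was the 1 gene of the 9 whose highest EVP value was in replicate 1, and its D replicate 1 value (66 reads) was above the TA replicate 5 value, so TA and D overlapped. Without D replicate 1 the log2 difference of TA from D rose from 6.70 to 8.0001 and that of EVP from D from 2.97 to 4.28, while without all replicate 1 libraries they were 7.84 and 3.43. EVP replicate 1 and D replicate 1 had the most olfactory receptor genes with a read, though EVP replicate 2 and TA replicates 1 to 3 also had reads on most of them, and the part of that background in the Ms4a2 values was not tested.

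Hdc, histidine decarboxylase, was present in all 15 libraries. It had 702, 3414, 1239, 6629 and 253 normalized counts in TA, 259.8, 452, 354, 1137 and 97.5 in EVP and 219.7, 649.8, 181, 160.0 and 106 in D. TA was highest on average (2447 ± 2633), with EVP at 460.0 ± 400.1 and D at 263 ± 219.9 (SD, n = 5), and the ranges of all 3 populations overlapped. EVP and D were closer than their spread, with a log2 difference of 0.68 (SE 0.77). Without EVP replicate 4 that difference was 0.24, without D replicate 5 0.43, without D replicate 2 1.08 and without EVP replicate 5 1.13. In D replicates 2 and 3, where the other 7 genes besides Kit had no read at all, Hdc had 796 and 231 reads.

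Kit had a different distribution. It had 3413, 1646, 3009, 3013 and 439 normalized counts in TA, 116, 219, 252, 621 and 221 in EVP, and 3338, 2105, 3580.0, 2778 and 3159 in D. All D libraries were above all EVP libraries, with means of 2992 ± 576 and 286 ± 194 (SD, n = 5), 10.5-fold apart. TA (2304 ± 1239) spanned both, since its replicate 5 lay within the EVP range. The log2 difference of TA from D was -0.66 (SE 0.49), and -0.14 without TA replicate 5. Thus D cells, with hardly a protease read, held as much Kit transcript as most TA libraries. By flow cytometry of tumors in other mice, the authors reported these Lineage-negative CD34+ populations as negative for c-KIT. Their figure legend states this for EVP and does not name TA or D. Flow cytometry measures protein, and its relation to the Kit transcript was not tested.

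**Figure D1:**
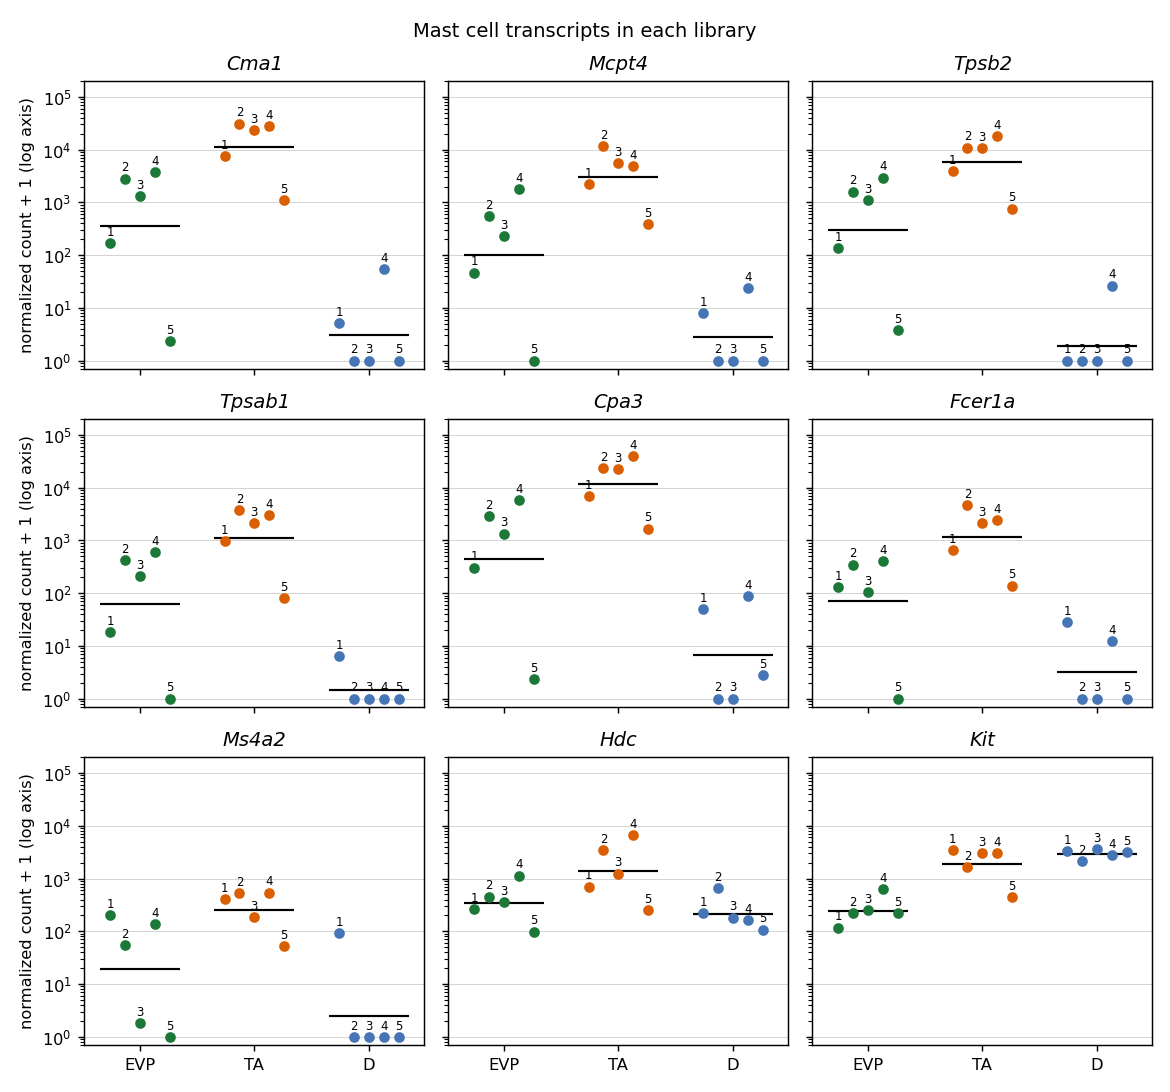
Normalized counts + 1 of the 9 mast cell transcripts (log axis) in EVP, TA and D cells, each point a library with its replicate number and each horizontal line the mean on the log scale of 5 libraries. The proteases and Fcer1a separate TA from D without overlap, while Kit is high in TA and D, with only TA replicate 5 (439) inside the EVP range of 116 to 621.

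For 6 of the 9 genes every TA library was above every D library. Over the 25549 genes averaging 5 or more normalized counts, 9.25% had no overlap between TA and D, and 5.56% had none and were higher in TA. The exceptions were Ms4a2, Hdc and Kit. Between EVP and TA the libraries overlapped for 9 of 9 genes, and 4.29% of all genes did not overlap. Between EVP and D only Kit did not overlap, higher in D, where 17.7% of all genes did not overlap and 7.52% were higher in D without overlap. These genes were chosen with the levels known, so nothing follows from the shares. On the scale of log2(normalized count + 1), the 8 genes other than Kit had a median difference of 9.84 between TA and D (all genes 0.24), 4.20 between TA and EVP (all genes -0.09) and 5.29 between EVP and D (all genes 0.46). Single differences of TA from D ran from 2.69 (SE 0.77) for Hdc to 11.82 (SE 1.69) for Cma1. The differences of TA from EVP ran from 2.01 for Hdc to 4.97 for Cma1, where Kit was at 2.92. For the proteases and Fcer1a, EVP replicate 5 weighed most in these differences, and without it Cma1 was at 3.16, Cpa3 at 2.88, Mcpt4 at 3.28, Tpsb2 at 2.65, Tpsab1 at 2.67 and Fcer1a at 2.48. Hdc ran from 1.45 (without TA replicate 4) to 2.62 (without TA replicate 5), and Kit from 2.44 (without all replicate 1 libraries) to 3.44 (without TA replicate 5). Each of the 9 genes was higher in TA than in EVP within each replicate number, in 5 of 5. The genes were chosen with this rise known and the numbers were not taken as pairs, so the tally is a description only.

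The 8 genes other than Kit took 0.140%, 0.585%, 0.464%, 0.695% and 0.0293% of the reads on genes in TA replicates 1 to 5. They took 0.00667%, 0.0506%, 0.0284%, 0.0930% and 0.000649% in EVP, and between 0.000675% and 0.00423% in D. The 95% Wilson interval ran from 0.691% to 0.699% in TA replicate 4 (132377 reads) and from 0.000553% to 0.000762% in EVP replicate 5 (149 reads). Of the 149 reads in EVP replicate 5, 141 were Hdc. The share of Kit ran from 0.000612% in EVP replicate 1 to 0.0230% in D replicate 3. In bulk samples, fewer cells of a type and less RNA per cell cannot be told apart.

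**Figure D2:**
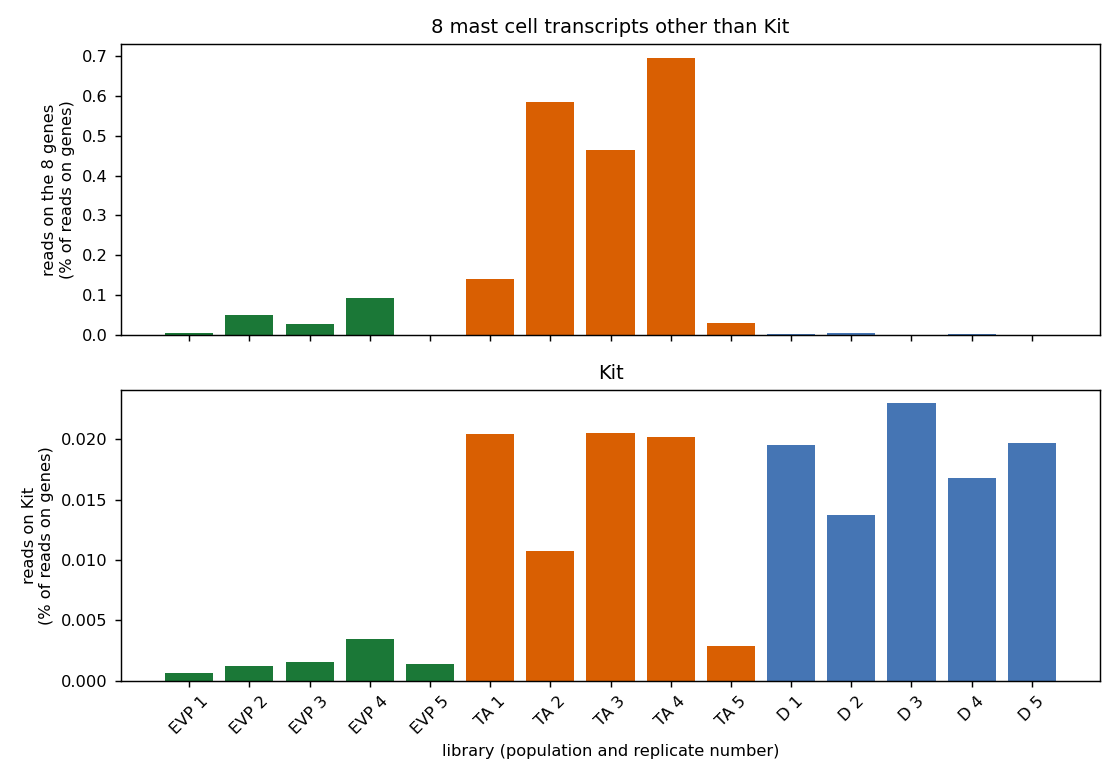
Share of the reads on genes (in percent, y axis) taken by the 8 mast cell transcripts other than Kit (top) and by Kit (bottom) in each of the 15 libraries (x axis), with green, orange and blue bars for EVP, TA and D. TA replicates 2 to 4 reach 0.464% to 0.695% in the top panel, whereas in the bottom panel the D libraries stand beside most of the TA libraries.

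Levels of different genes were compared per kilobase of exon. In TA the order was Cma1 (16703 normalized counts per kilobase), Cpa3 (12525), Tpsb2 (5581), Mcpt4 (4469), Fcer1a (2000), Tpsab1 (949), Hdc (383), Kit (259) and Ms4a2 (121). Cma1 ranked 16 and Cpa3 ranked 27 in TA by this level among 25518 genes with a known length, while in EVP they ranked 600 and 658. The order of neighbors was not firm, since Cma1 was above Cpa3 in 3 of 5 TA libraries, and the ranges over libraries overlapped for each pair of neighbors in TA and in EVP. Fcer1a was above Tpsab1, and Cpa3 above Tpsb2, within 5 of 5 TA libraries. In D the order was led by Kit (335.7 per kilobase, rank 2725) and Hdc (41.2, rank 9180), whose ranges did not overlap.

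The proportions of the proteases to each other overlapped between TA and EVP. In TA there were 46.1 reads of Tpsb2 for each 100 reads of Cpa3 (median, range 45.02 to 55.9 over 5 libraries), and in the 4 EVP libraries with over 2 reads of Cpa3 there were 52.9 (44.8 to 81.0). Cma1 had 104 reads for each 100 of Cpa3 in TA (65.7 to 132) and 81.1 in EVP (55.2 to 98.2). Mcpt4 varied more, with 24.9 in TA (12.0 to 49.4) and 17.7 in EVP (14.9 to 30.3). The ranges of the populations overlapped for each of these ratios, although Cpa3 itself differed by a factor of 9.15 between the means.

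The 2 D libraries with reads of Cpa3 differed in what came with it. D replicate 4 had 116 reads of Cpa3, 71 of Cma1 (61.2 for each 100), 34 of Tpsb2 (29.3), 30 of Mcpt4 (25.9) and 15 of Fcer1a (12.9). It had none of Tpsab1 and Ms4a2. D replicate 1 had 36 reads of Cpa3 but only 3 of Cma1 and none of Tpsb2, next to 66 of Ms4a2 and 20 of Fcer1a. In EVP replicate 1 as well, Ms4a2 (65.5) and Fcer1a (42.5) had their highest ratio to Cpa3 of the EVP libraries. Kit in D was not in proportion to the proteases, with 3698 reads in replicate 4 and 2431 in replicate 1.

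**Figure D3:**
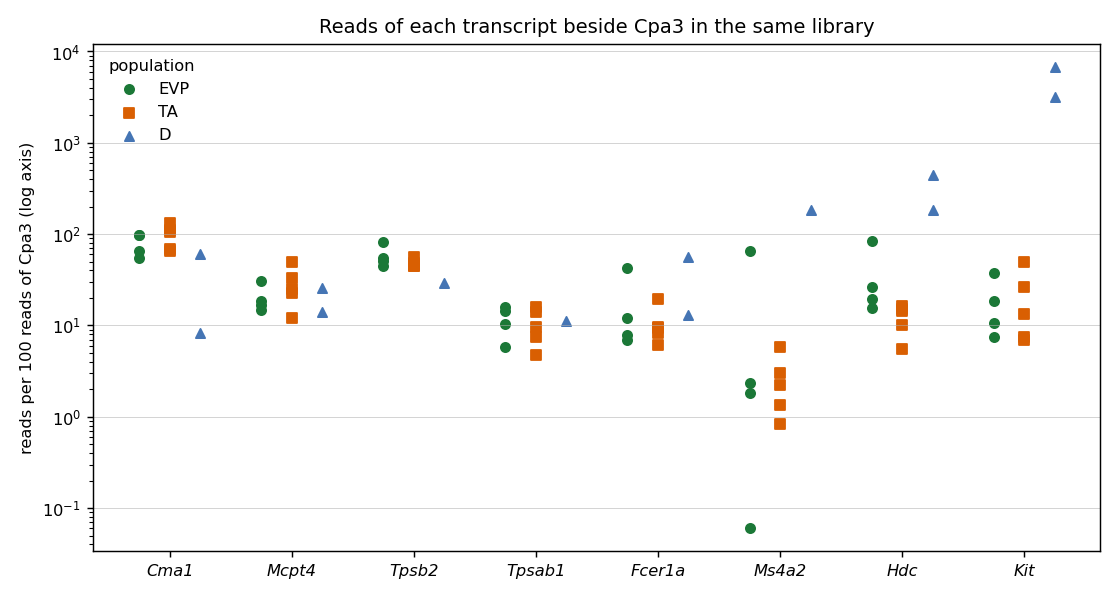
Reads of each transcript for every 100 reads of Cpa3 in the same library (log axis) in the 4 EVP, 5 TA and 2 D libraries with over 3 reads of Cpa3, where each point is a library and ratios of 0 (Tpsb2 in D replicate 1, Tpsab1 and Ms4a2 in D replicate 4) cannot be drawn. Tpsb2 stays between 44.8 and 81.0 in EVP and TA, whereas Ms4a2 reaches 65.5 in EVP replicate 1 and 183 in D replicate 1.

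Across the 15 libraries, the levels of the 8 genes other than Kit rose and fell together. Pearson's r of log2(normalized count + 1) ran from 0.70 to 0.99 over their 28 pairs (median 0.95). After each population's mean was taken off, it ran from 0.35 to 0.98 (median 0.83), and without the replicate 1 libraries from 0.55 to 1.00 (median 0.87). The 10 pairs of proteases had a median of 0.93 within populations. The 8 pairs with Kit ran from -0.16 to 0.23 in all, and from 0.24 to 0.57 within populations. These are descriptions over 15 points that share size factors and depth within a library.

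Of 58 other genes of mast cells that were listed by role, 52 averaged 5 or more normalized counts. Their tests come from the same libraries and the same contrasts as the levels above, so they are no independent evidence, and adjusted p-values are from limma over all 25549 genes. Between TA and D, 27 of the 52 were higher in TA and 2 higher in D, while 23 did not pass, with 12.5% of all genes passing in this comparison (8.21% higher in TA and 4.31% higher in D). The median log2 difference of the 52 was 2.30 (all genes 0.24). Between EVP and D, 17 were higher in EVP, 6 higher in D and 29 did not pass (19.0% of all genes passed, 11.6% higher in EVP and 7.46% higher in D). Between EVP and TA, 8 were higher in TA and none in EVP, and 44 did not pass (3.50% of all genes passed, 1.94% higher in TA and 1.56% higher in EVP). Of these 8 calls only 5 were kept when EVP replicate 1, TA replicate 2 or TA replicate 3 was left out, 4 without EVP replicate 2, EVP replicate 3 or TA replicate 4, and 3 without all replicate 1 libraries.

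Among the other granule genes, 2 of 7 passed between TA and D, both higher in TA. Gzmb, granzyme B, had means of 229.7 normalized counts in TA, 65.0 in EVP and 3.005 in D (log2 difference of TA from D 6.45, SE 1.00, adjusted p = 0.000283), and Tpsg1, the membrane-bound gamma tryptase, had 118, 9.09 and 1.30 (5.08, SE 1.08, adjusted p = 0.00408). Mcpt1 and Mcpt2, the proteases of mucosal mast cells, and Ctsg, cathepsin G, had no read in any D library and did not pass in a comparison. Srgn, the serglycin core protein, went another way, with 4170 in TA, 4792 in D and 1107 in EVP. It was lower in EVP than in D (log2 difference -2.22, SE 0.38, adjusted p = 0.000295) and than in TA (adjusted p = 0.0115), and the latter call was lost without the replicate 1 libraries.

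Of the 20 listed receptors and signalling proteins, 12 were higher in TA than in D and 1 was lower. Mrgprb1, a receptor of the mast cell MRGPR family, had 652, 1654, 1628, 1584 and 88.4 normalized counts in TA, 379, 141, 116, 355 and 0 in EVP and at most 12.0 in D. Its TA libraries were all above its D libraries (log2 difference 7.82, SE 1.36, adjusted p = 0.000848). Mrgprb2, the receptor for cationic peptides and drugs, had means of 237 in TA, 86.6 in EVP and 1.098 in D (6.88, SE 1.41, adjusted p = 0.00318). Fcer1g, the gamma chain that the IgE receptor shares with other Fc receptors, had 588, 1219, 1310.3, 2849 and 756 in TA, 80.8, 255, 110.4, 717 and 563 in EVP and 360, 366, 181, 539 and 430 in D. Unlike the alpha chain, it was therefore present in every library, and its difference of TA from D did not pass (1.70, SE 0.56, adjusted p = 0.0543), although all TA libraries were above all D libraries and it passed when EVP replicate 1, 3, 4 or 5, TA replicate 1 or all replicate 1 libraries were left out. Its rise from EVP to TA passed (adjusted p = 0.0342), and was lost without any 1 of EVP replicates 1 to 3 or TA replicates 2 to 4, and without all replicate 1 libraries.

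Il1rl1, the receptor for IL-33, was far higher in EVP (mean 4152) and TA (1811) than in D (13.0), with adjusted p = 1.14e-06 for EVP against D, and EVP and TA did not differ beyond their spread (log2 difference 0.77, SE 0.90, adjusted p = 0.836). It thus did not share the rise from EVP to TA of the proteases. Lyn, the kinase that starts signalling at the IgE receptor, was higher in D (mean 1802) than in EVP (368; log2 difference -2.35, SE 0.29, adjusted p = 1.16e-05). Cd63, a membrane protein of granules and lysosomes, had 19907 in EVP, 14472 in TA and 4311 in D, and was higher in TA than in D (1.74, SE 0.19, adjusted p = 8.41e-06).

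Of the 9 genes of mediator synthesis and storage, 6 were higher in TA than in D and none lower. Tph1, the enzyme of serotonin synthesis, had 817, 1327, 1233, 2816 and 82.2 normalized counts in TA, 256, 239, 169, 473 and 2.07 in EVP and between 0 and 23.3 in D. TA and D did not overlap (7.72, SE 1.31, adjusted p = 0.00067). Hpgds, which makes prostaglandin D2, had means of 1096 in TA, 382 in EVP and 231 in D, and was higher in TA than in EVP (1.501, SE 0.28, adjusted p = 0.00647) and than in D (2.23, SE 0.28, adjusted p = 2.94e-05). Cyp11a1, a steroid-synthesizing cytochrome, had 516, 93.7 and 4.37 in TA, EVP and D (TA from D 6.63, SE 1.13, adjusted p = 0.000702). Slc18a2, the vesicle transporter for histamine and serotonin, had 710.2 in TA, 357 in EVP and 357 in D and passed in no comparison.

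**Figure D4:**
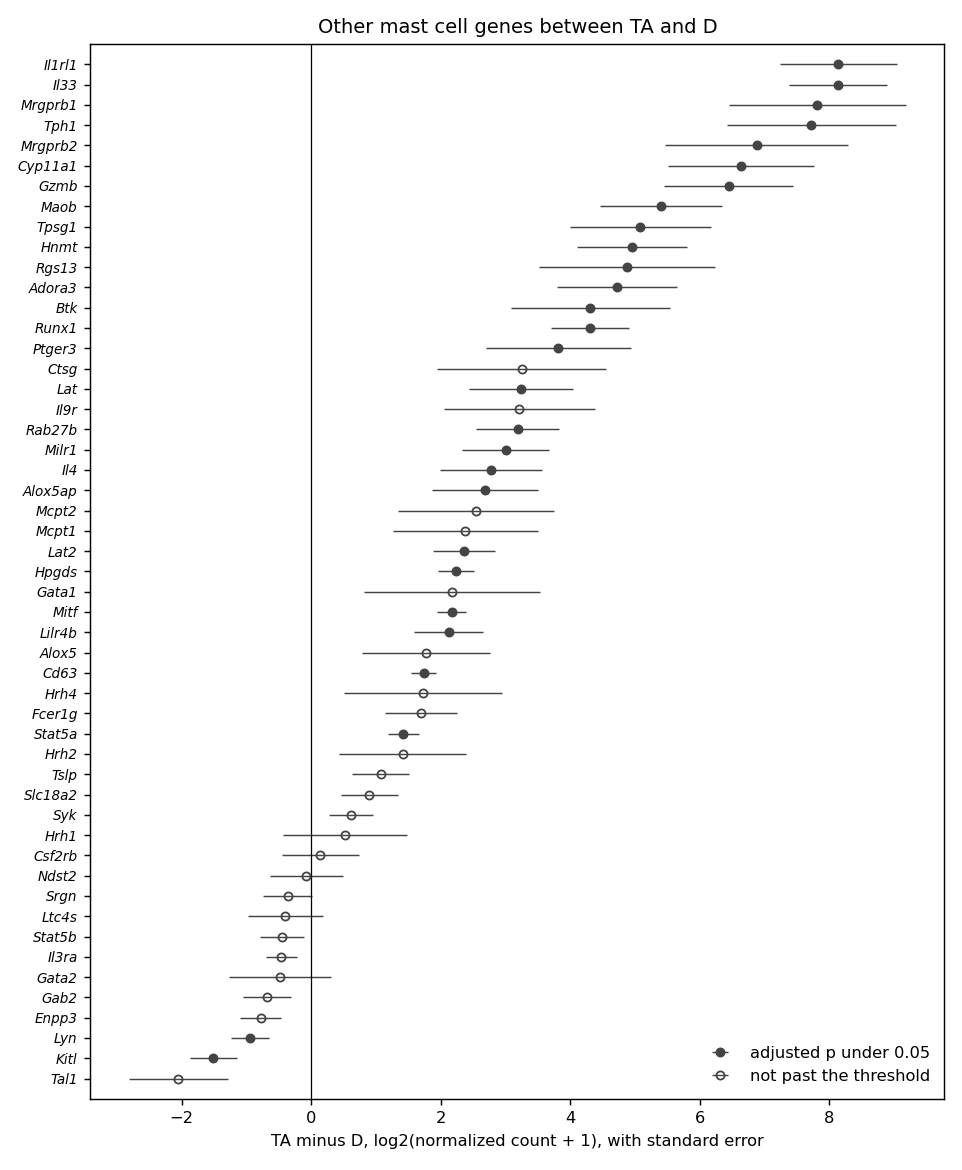
Difference of TA from D in log2(normalized count + 1) for 51 of the 52 other mast cell genes tested (x axis), each point the fitted difference with its standard error and filled where the adjusted p from limma was under 0.05. Of the filled points, 26 lie to the right of 0 and 2 to the left, Kitl and Lyn.

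Of the 7 transcription factors listed for mast cells, 3 were higher in TA than in D and none lower. Mitf, a factor that mast cells share with melanocytes, had means of 813 normalized counts in TA, 598 in EVP and 180.1 in D (TA from D 2.17, SE 0.22, adjusted p = 4.13e-06). Runx1 (1239 in EVP, 486 in TA, 26.7 in D) and Stat5a (535, 340.5 and 124) were also higher in TA than in D, with adjusted p = 0.000122 and 0.000721. Gata2, which drives mast cell and blood progenitor genes, was lowest in EVP, as Kit was, with 102 in EVP, 647 in TA and 671 in D, and was lower in EVP than in D (log2 difference -3.62, SE 0.78, adjusted p = 0.00248). Tal1, a factor of blood and endothelial cells, had 5.36, 113 and 315 in EVP, TA and D (EVP from D -6.04, SE 0.76, adjusted p = 1.21e-05). Gata1 was low in all populations, with 5.62, 26.1 and 5.79, and passed in no comparison.

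Of the 4 tested genes of histamine breakdown and histamine receptors, Hnmt, the histamine methyltransferase, passed between TA and D (111, 112 and 5.76 in TA, EVP and D, adjusted p = 0.000751), and the receptors Hrh1, Hrh2 and Hrh4 did not. Among the 5 tested growth factors, Kitl, the stem cell factor that binds KIT, was highest in D (means 5622 in D, 2214 in TA and 1188 in EVP). TA was below D by 1.51 on the log2 scale (SE 0.36, adjusted p = 0.00871) and EVP by 2.38 (adjusted p = 8.37e-05). Il33 and Il4 were higher in TA than in D, with adjusted p = 1.21e-06 and 0.0255, the latter of which was lost without any 1 of TA replicates 2 to 4, D replicate 3 or D replicate 5. Il33 had its highest mean in EVP (14814, with 5285 in TA and 28.7 in D). Il3 and Il9 had no read in EVP and TA and were not tested.

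Markers of other cells moved between populations as well. Counts of higher genes are of those that passed. Of all genes, 8.21% passed as higher in TA than in D and 1.94% as higher in TA than in EVP. The 3 basophil genes, which encode proteases and a receptor of a cell type that shares the IgE receptor with mast cells, summed to 115 to 1801 normalized counts in TA, 27.7 to 442 in EVP and 0 to 34.3 in D. All 3 were higher in TA than in D, with adjusted p = 0.0495 for Mcpt8, 0.00248 for Prss34 and 0.00528 for Cd200r3. The Mcpt8 call was lost without any 1 of EVP replicates 3 to 5, TA replicates 2, 4 and 5 or D replicates 2 to 5. From EVP to TA the median of Mcpt8 fell from 27.0 to 12.3 normalized counts, with 383 in its highest TA library. The medians of Prss34 (0 to 201) and Cd200r3 (43.1 to 203) rose, and none of the 3 genes passed between EVP and TA. The 10 pan-leukocyte genes summed to 8904 to 41554 in TA, 1820 to 11981 in EVP and 7205 to 11818 in D, and 5 of 10 were higher in TA than in D. The sum in D rested on Lcp1, an actin-bundling protein, with means of 7966 in D, 6540 in TA and 1350 in EVP and higher in D than in EVP (adjusted p = 0.000251), whereas the other 9 each had a lower mean in D than in EVP and TA, of at most 416. Ptprc, which encodes CD45, had means of 1682 in TA, 775 in EVP and 221 in D (TA from D adjusted p = 0.0271, lost without any 1 of TA replicates 3 to 5 or D replicates 3 to 5). The macrophage genes summed to 9852 to 44380 in TA, 2305 to 12503 in EVP and 4892 to 13599 in D. Of these, 7 of 10 passed as higher in TA than in EVP. Between TA and D, 10 of 10 had the higher log2 mean in TA and 1 of 10 passed. The neutrophil genes (129 to 4625 in TA, 66.3 to 643 in EVP, 75.9 to 361 in D) had no call among 4 tested, and of the 8 lymphocyte genes (184 to 3407, 81.0 to 706 and 11.5 to 235) 2 were higher in TA than in D. No gene of these lists was at 0 in all libraries of a population.

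The 7 melanocyte and melanoma genes summed to 71082 to 181415 normalized counts in TA, 30138 to 69720 in EVP and 18994 to 50152 in D. All 7 of 7 passed as higher in TA than in D (8.21% of all genes). The 8 endothelial genes ran the other way, with 87260 to 142473 in D, 5562 to 62394 in TA and 2216 to 4090 in EVP, the order of the means of Kit, Kitl, Gata2 and Tal1. Tek was the exception among the 8, with means of 2379 in D, 583 in TA and 1578 in EVP. The 8 fibroblast genes summed to 806482 to 1427260 in EVP, 188080 to 601331 in TA and 1187 to 4286 in D, the order of Il1rl1, Il33 and Runx1. Against these, the 5 proteases summed to 4015 to 94084 in TA, 5.53 to 14938 in EVP and 0 to 189 in D. The part of any of these cell types in the levels of Kit, Hdc or the other genes was not tested.

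**Figure D5:**
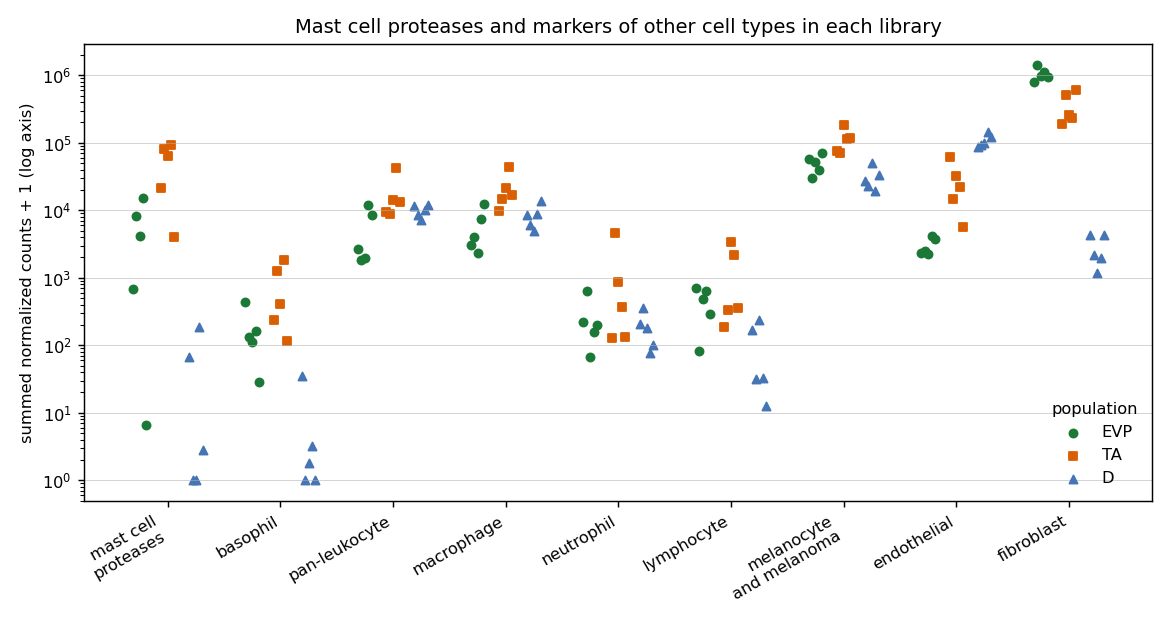
Summed normalized counts + 1 (log axis) of the 5 mast cell proteases and of marker lists for other cell types in the EVP (green circles), TA (orange squares) and D (blue triangles) libraries, each point a library. Proteases and basophil genes fall to at most 189 and 34.3 in D, while the pan-leukocyte sum, mostly Lcp1 there, lies between 7205 and 11818.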

How the data were processed

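RNA of 15 sorted samples was amplified by the authors with a modified Smart-Seq2 protocol, aligned with STAR 2.5.3a to GRCm38 and counted per gene with HTSeq-count, without molecular identifiers and without strand. The deposited normalized counts are signal values, read counts divided by the authors with 1 DESeq2 1.10.1 size factor per library. Division by the value of 1 read gave whole reads for 100% of the values (tolerance 0.01). Tables of the authors' own comparisons hold means, log2 fold changes, standard errors, statistics and p-values, and were not used here.

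Groups came from the labels. The members and lists were chosen with earlier results of these data known. The rule named the 9 members, at most the 5 most abundant genes of a list and those that passed, and the 15 genes most alike to the mean protease profile. Gata1, Mcpt1, Mcpt2, Il3, Il9 and single markers of other cell types were named after their values were seen. Log2(normalized count + 1) of 25549 genes with a mean of at least 5 was fitted with limma 3.58.1 in R 4.3.3 (3 populations, two-sided, Benjamini-Hochberg adjusted p under 0.05). Members are given without p. The single values of 2 genes of the lists are not reported here. The fit was tested on simulated data. A value of 3 reads was taken as the detection limit. Depth ran from 5394356 to 26513073 reads per library. Exon lengths and positions came from the annotation of GRCm38 and matched 99.8% of genes. Alternatives were the pseudocount, the minimum mean, TMM and quantile normalization, a replicate block, fits of 2 populations, edgeR 4.0.16, DESeq2 1.42.0 and leaving out each library or all replicate 1 libraries.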

Additional observations from a re-analysis of the deposited data

Results flagged for a closer look

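Among 30 sets of 5 libraries checked for a single library far from the others (each member on the log2 scale and the share of reads on the 8 members other than Kit, by population), 4 had one. Chance gives about 1 in 20 for values without ties, a share that does not apply to 3 of the 4 sets, in which 4 libraries were at 0 and the ratio is 1 by construction. The gap to the nearest library divided by the range of the set was 1 for Tpsb2 in D, where only replicate 4 had reads (4.73 on the log2 scale against 0). It was also 1 for Tpsab1 in D (2.70 against 0) and for Ms4a2 in D (6.52 against 0), in both of which only replicate 1 had reads. It was 0.779 for Fcer1a in EVP, where replicate 5 was at 0 and the next library at 6.74.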

How the results depend on the processing

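Across the alternatives, the sign of the log2 difference stayed for each of the 9 members in each comparison, although sizes moved with single libraries. Without EVP replicate 5 the differences of EVP from TA and from D changed most for the proteases and Fcer1a. Without D replicate 4 the differences of TA from D rose for Cma1 (from 11.82 to 12.85), Cpa3 (from 10.83 to 11.76), Mcpt4 and Tpsb2. Tpsab1 had no read in that library. The number of other mast cell genes called between EVP and TA was 8 in limma, 5 without a minimum mean, 5 with edgeR and 14 with DESeq2, and between 3 (without replicate 1 in every population) and 10 (without TA replicate 5) when libraries were left out. Left-out libraries gave 19 to 24 such genes between EVP and D and 23 to 32 between TA and D. Over all genes, calls between EVP and TA numbered 893 in limma, 1900 with DESeq2 and 428 (without EVP replicate 2) to 1209 (without TA replicate 5) with libraries left out. Between EVP and D, limma called 2952 genes up in EVP and 1907 up in D, which became 1920 and 1983 with quantile normalization as the median difference moved from 0.46 to -0.05, and left-out libraries gave 4106 to 5150 genes. Between TA and D, limma called 3199 genes (2098 higher in TA), quantile normalization 2117 (1206 higher in TA, with a median difference of -0.10), and left-out libraries gave 2403 to 4397. Over the members and the listed genes alone, 405 results of alternative fits lost a call, 163 gained one, 8645 stayed the same and none reversed. Only 1 member value, Tpsab1 between EVP and D, moved by more than the spread. The causes were not tested. With replicate number as a block, 24 other mast cell genes were called between EVP and D, 12 between EVP and TA and 31 between TA and D. Over all genes the block gave 5710, 1262 and 4047 calls in these comparisons. The labels do not say that same-numbered libraries share animals, and their deviations correlated at -0.136 for replicate 3 of EVP and TA, which was closer to another number, and at 0.603, 0.137, 0.596 and 0.576 for replicates 1, 2, 4 and 5, each closest to its own number. For EVP and D and for TA and D, replicates 1, 2, 4 and 5 were also closest to their own number. Replicate 3 was not (0.242 for EVP and D, -0.004 for TA and D). Because of replicate 3, the numbers were not taken as pairs. Depth limits the low values, such as the 3 reads of Cma1 and 4 of Tpsab1 in D replicate 1 or the 3 of Cpa3 in D replicate 5. The proteases with reads in D replicate 4 had 30 to 116 reads.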

Other observations

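Among the 25549 genes tested, the 15 genes outside the members whose levels were most alike to the mean profile of the 5 proteases (Pearson's r over 15 libraries, 0.871 to 0.970) were listed as a description. Tph1 (r = 0.970), Mrgprb1 (0.960), Cyp11a1 (0.899) and Tpsg1 (0.874) were among the mast cell genes already described. Slc6a4, the plasma membrane serotonin transporter (0.905), had means of 173 normalized counts in TA, 37.4 in EVP and 6.75 in D. Pou2af1, a coactivator of B cells (0.920), had 110, 16.1 and 3.82. Cited4, a transcriptional coregulator (0.900), had 203, 35.3 and 4.04. The list also held genes of epithelium and hair follicle. Krt17, a keratin of hair follicles and activated epidermis (0.926), had 3068 in TA, 1025 in EVP and 63.3 in D, Ap1m2, an epithelial clathrin adaptor (0.879), had 133, 40.7 and 5.64, Ripk4, a kinase of epidermal differentiation (0.878), had 177, 74.2 and 2.48, and Hr, a corepressor of the hair cycle (0.871), had 159, 89.1 and 9.004. Bdh1 (0.881), Slc7a8 (0.880) and Wfdc1 (0.878) were also on the list. All 15 had their highest mean in TA, and the points share libraries and size factors.

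Among the members, Fcer1a (r = 0.978 with the profile) stood closest after the 5 proteases, Ms4a2 (0.813) ranked 99 and Hdc (0.779) ranked 166, while Kit (-0.086) ranked 17576. Of the basophil genes, Prss34 (0.860) ranked 32, Cd200r3 (0.835) ranked 62 and Mcpt8 (0.507) ranked 2870.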
